A study of Homo sapiens with 12 samples.

Results

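The mitochondrial ribosomal proteins are described here as the 78 protein-coding genes whose symbol is MRPL or MRPS followed by digits and an optional letter, of 60669 gene identifiers in the table. The members were picked by symbol, with no cut on a measured value. Earlier results of these data were known when the family was chosen, among them its lower values in C13 with drug. By symbol, 49 belong to the large (MRPL) and 29 to the small (MRPS) subunit. All 78 were in the table, and 77 (48 large, 29 small) passed the expression filter and were among the 18720 genes tested. MRPL53 did not pass, with 0 to 11 counts per library, and 99.2% of the bases of its exons are also exons of CCDC142 or of an unnamed gene. Its level could therefore not be read from these counts.

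The study asked how ovarian cancer cells that are sensitive or resistant to chemotherapy respond to quinacrine (QC), an acridine drug first used against malaria. RNA-seq of polyadenylated RNA was made from 6 established lines, each treated with vehicle or with 8 µM QC for 6 h, as 1 library per line and treatment and 12 libraries in all. The sensitive lines were HeyA8, SKOV3 and OV2008. The resistant lines were HeyA8_MDR (HeyA8-MDR), SKOV3_TR (SKOV3-TR) and OV2008_C13 (C13), each derived from the sensitive line of the same name stem. The study's text calls C13 cisplatin resistant, SKOV3-TR taxol resistant and HeyA8-MDR carboplatin resistant, while the series text speaks of platinum sensitivity. The HeyA8 lines were grown in DMEM and the other 4 lines in RPMI. Each line is 1 culture lineage with no replicate of its own, so the 3 lines of a group are its replicates. The p-values for QC rest on how far the change varies between lines, with 1 estimate of spread shared by all 12 libraries. Those without drug rest on how far the resistant minus sensitive difference varies between families. In bulk RNA, fewer cells of a kind and less RNA per cell cannot be told apart.

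Mitochondria carry their own ribosome, which translates the few proteins encoded by mitochondrial DNA, all of them parts of the respiratory chain and ATP synthase. Its 2 ribosomal RNAs are made inside the organelle, but its proteins are nuclear gene products that are made in the cytosol and imported. Some of these proteins are shared with ribosomes of all kingdoms, some only with bacterial ribosomes, and many are found only in mitochondria. The small subunit binds the mRNA, and the large subunit forms the peptide bonds and holds the exit tunnel. By the family names listed in RefSeq, 26 members are universal, 18 bacterial and 31 mitochondrial, and 3 (MRPS24, MRPS28, MRPS36) carried no such name. MRPS18A and MRPS30 are listed as mL66 and mL65, so their proteins belong to the large subunit despite the symbol. MRPS36 is now mostly regarded as a part of the 2-oxoglutarate dehydrogenase complex.

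Counts on genes totalled 17782556 to 30585059 per library, and the tested members had 46 to 7557 counts in a library. The HeyA8 QC library stood apart. For genes at least 8-fold higher or lower in HeyA8-MDR than in HeyA8 without drug (285 and 218 genes), it lay at a median of 39.6% and 52.7% of the way to HeyA8-MDR, whereas the QC libraries of the other lines lay between 0% and 31.2% of the way to their partner. Because of this position, results that use HeyA8 are also given without it. ABCB1, the drug efflux pump, was at 3.77 CPM, counts scaled to the library total, in HeyA8 vehicle, 23.7 CPM in HeyA8 QC and 48.9 CPM in HeyA8-MDR vehicle. It also moved towards the partner's vehicle level in OV2008 (36.4 to 8.27 CPM, C13 at 0.602 CPM). In SKOV3-TR it went from 384 to 156 CPM, with SKOV3 vehicle at 0.185 CPM. This gene alone therefore does not set HeyA8 apart. The epithelial keratins KRT8 and KRT18 were at 181 CPM or more in all 12 libraries. The other epithelial markers listed were not high in every line. In the HeyA8 lines CDH1, EPCAM and KRT19 were at 2.7 CPM or less, and in OV2008 and C13 KRT7 was at 13.2 to 29.2 CPM. PAX8, a Mullerian lineage factor, was at 210 CPM or more in the HeyA8 and SKOV3 lines. It was at 27.7 CPM or less in OV2008 and C13. Of the other Mullerian and ovarian tumour markers listed, only SOX17 shared this split (6.15 CPM or more against 0.0844 CPM or less). WT1 was low in each library (1.12 to 4.38 CPM), and EMX2 (0.408 CPM or less) did not pass the filter. MUC16 was at 0.272 CPM or less in the HeyA8 lines and SKOV3-TR, 0.914 to 2.36 CPM in OV2008 and C13 and 9.82 CPM or more in SKOV3. The squamous markers KRT5 (2856 CPM or more) and TP63 (109 CPM or more) were present in OV2008 and C13. So were KRT6A (83.76 CPM or more) and KRT14 (8.9 CPM or more). SKOV3-TR also held KRT5, at 56.9 CPM in vehicle and 27.2 CPM in QC, and KRT6A at 2.04 and 1.07 CPM. Both were at 0 CPM in SKOV3. Of 7 markers of blood, endothelial and fibroblast cells, 5 did not pass the filter, with PTPRC, CD3E and CD14 at 0.522 CPM or less in each library, and COL1A1 was at 0.660 to 41.8 CPM.

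Promoter sequences were read to show what the members' start sites share besides the symbol. Of the 78 members, 69 had an entry in the RefSeq promoter table, a window of 300 bases around the start (GRCh38.p14), and 11 of these had several windows. The 3 motifs were searched on both strands, where a gene counts once if any of its windows holds the letters. CCGGAAG, the core bound by ETS factors, was present in 30 of the 69 members (43.5%) and in 16.5% of 15842 protein-coding genes. AAGATGGC, the core bound by YY1, was present in 21 (30.4%) against 4.67% of all. GCATGCGC, part of the palindromic site of NRF1, was present in 6 (8.70%) against 4.89%. In all, 44 members held at least 1 of the 3, 8 held both the ETS and the YY1 letters, and the matches of those 2 motifs shared no bases in any member. These are descriptions of letters and do not show that a factor binds. The windows below are from MRPL47 and MRPL48, which had among the clearest higher values with QC, and from MRPS34 and MRPL17, at -0.89 and -0.79 in C13. They run upstream of the start on the gene's strand, with the motif letters in capitals. Only windows that hold motif letters are printed. MRPL12, MRPL57 and MRPL24, also among the lowest in C13, hold none of the 3 motifs. Neither do MRPS6, MRPS15, MRPL39 and MRPS25, which are among the members called over the 6 lines below.
MRPL47 (chr3:179604666-179604755, minus strand, bases -117 to -28): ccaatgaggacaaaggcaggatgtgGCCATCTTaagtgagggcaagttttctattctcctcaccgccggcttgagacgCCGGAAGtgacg
MRPL48 (chr11:73787786-73787873, plus strand, bases -88 to -1): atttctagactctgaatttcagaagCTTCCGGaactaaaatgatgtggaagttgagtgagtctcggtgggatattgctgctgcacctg
MRPS34 (chr16:1773141-1773230, minus strand, bases -96 to -7): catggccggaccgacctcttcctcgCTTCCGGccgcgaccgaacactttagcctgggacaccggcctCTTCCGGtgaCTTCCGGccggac
MRPL17 (chr11:6683357-6683446, minus strand, bases -106 to -17): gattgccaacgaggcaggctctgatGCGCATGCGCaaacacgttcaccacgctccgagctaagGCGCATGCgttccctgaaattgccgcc
MRPS34 carried 3 ETS matches within these 90 bases, MRPL47 a YY1 and an ETS match, and MRPL17 3 NRF1 matches, of which a pair overlaps in the palindrome. The median QC change in C13 was -0.38 for members with and -0.35 for members without the ETS letters, and -0.30 with and -0.46 without the YY1 letters, on the log2 scale. For the NRF1 letters it was -0.32 with (6 tested members) and -0.36 without.

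Without drug, the mitochondrial ribosomal proteins were most abundant in C13 and OV2008. Their summed level, over the 77 members and after TMM scaling (a trimmed mean that equalizes most genes between libraries), was 6458 CPM in C13, 5430 CPM in OV2008, 3760 CPM in HeyA8, 3751 CPM in HeyA8-MDR, 2678 CPM in SKOV3 and 2479 CPM in SKOV3-TR. The HeyA8 lines were thus nearly level, and the lines of the OV2008 family stood above the other 4. As a share of all counts, the 78 genes took 0.285% in SKOV3-TR and 0.649% in C13 vehicle cells. C13 had the highest vehicle level of the 6 lines for 43 of 77 members, and no share over all genes was taken for this count.

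Levels of single members can be compared with each other only per length. In the large subunit the highest mean level over the 6 vehicle libraries was that of MRPL51 (134 ± 76.1 CPM per kb of transcript, SD, n = 6), followed by MRPL37 (110 ± 42.5) and MRPL41 (103 ± 68.2), all of them proteins found only in mitochondria. MRPL51 ranged from 31.2 CPM per kb in SKOV3-TR to 201 in OV2008. In the small subunit MRPS34 (85.6 ± 43.9), MRPS15 (84.7 ± 31.4) and MRPS2 (79.4 ± 43.1 CPM per kb) were highest. MRPS15 binds the small ribosomal RNA and MRPS2 lies near the path of the mRNA. The highest 3 of each subunit differed from each other by less than their spread over lines. The lowest levels were those of MRPL42 (3.8 ± 1.1), MRPL38 (6.8 ± 1.8) and MRPL46 (7.2 ± 3.3 CPM per kb) in the large subunit and of MRPS17 (4.6 ± 2.7), MRPS33 (5.6 ± 2.0) and MRPS11 (7.7 ± 4.4 CPM per kb) in the small one. For MRPL38 and MRPL46, 94.3% and 73.4% of exon bases lie under exons of other genes, where reads may not have been counted. MRPL42 has a transcript of 15557 bases, which lowers its level per kb.

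With QC, the summed level moved in different directions across the 6 lines. It went from 3760 to 4172 CPM in HeyA8 (10.96%), from 3751 to 4142 CPM in HeyA8-MDR (10.4%) and from 2678 to 2788 CPM in SKOV3 (4.10%). SKOV3-TR had the largest positive difference, from 2479 to 3181 CPM (28.3%). In OV2008 the sum went from 5430 to 4993 CPM (-8.05%), and in C13 from 6458 to 4985 CPM (-22.8%). The C13 and OV2008 sums, which were apart without drug, thus lay close to each other with QC. With 1 library per line and treatment these are differences between libraries without a test.

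**Figure D1:**
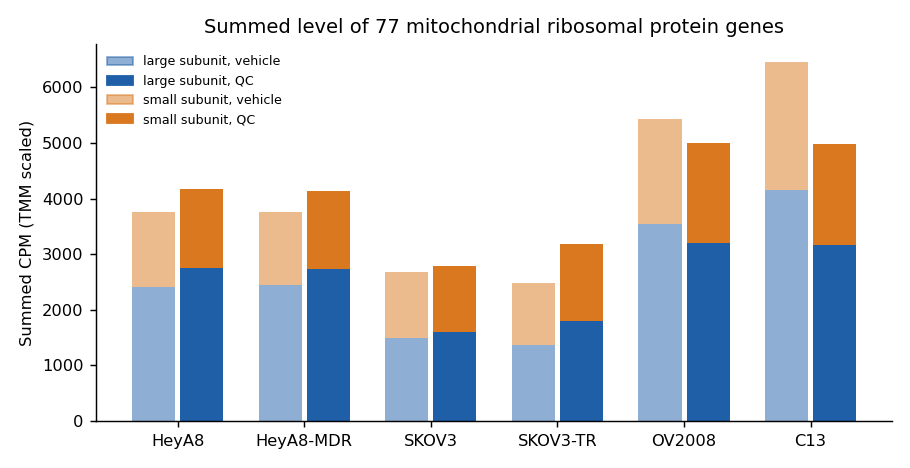
Summed level of the 77 tested mitochondrial ribosomal protein genes in each of the 12 libraries, in CPM after TMM scaling, as stacked bars of the large (blue) and small (orange) subunit, with vehicle in pale and QC in full colour. The bars of SKOV3-TR go from 2479 to 3181 CPM with QC and those of C13 from 6458 to 4985 CPM.

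The change per gene also put SKOV3-TR highest and C13 lowest. The median log2 change of QC over vehicle across the 77 members was 0.13 in HeyA8, 0.07 in HeyA8-MDR, 0.08 in SKOV3, 0.36 in SKOV3-TR, -0.07 in OV2008 and -0.36 in C13, where the median over all genes tested was between -0.005 and 0 in each line. In SKOV3-TR 68 of 77 members were above 0, where 47.3% of all genes were. In C13 71 of 77 were below 0, where 48.7% of all genes were. The remaining lines were mixed, with 30, 32, 30 and 43 members below 0 in HeyA8, HeyA8-MDR, SKOV3 and OV2008.

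A size of 0.5 on the log2 scale was used to count larger changes. In SKOV3-TR 21 members were above 0.5 (13.1% of all genes) and 0 were below -0.5 (17.3%). In C13 0 were above 0.5 (20.4%) and 25 were below -0.5 (15.5%). In OV2008 3 were above (21.5%) and 11 below (18.8%), and in SKOV3 3 were above (11.1%) and 0 below (12.3%). In HeyA8 11 were above (22.0%) and 1 below (20.0%), and in HeyA8-MDR 12 were above (19.3%) and 3 below (22.7%). The shares of members in HeyA8, HeyA8-MDR, SKOV3 and OV2008 were under those of all genes in both directions. In SKOV3-TR and C13 they lay on 1 side, with 27.3% of members above 0.5 in SKOV3-TR and 32.5% below -0.5 in C13. Both are resistant lines, so the resistant group held the highest and the lowest median of the 6.

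**Figure D2:**
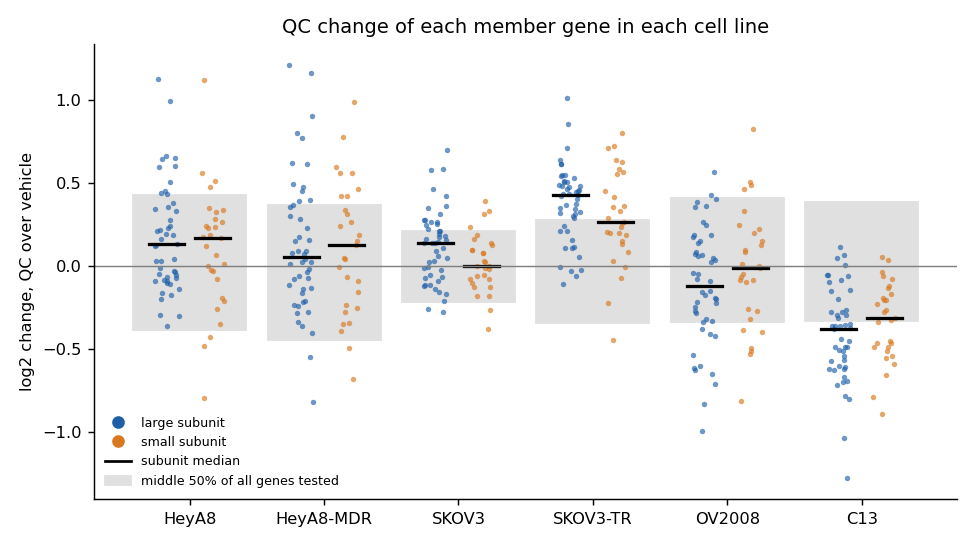
Log2 change with QC of each tested member in each line, 48 large (blue) and 29 small subunit genes (orange), with the subunit medians as black lines and the middle 50% of all 18720 genes tested as grey boxes. Most points lie above 0 in SKOV3-TR (68 of 77) and below 0 in C13 (71 of 77).

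The medians of the large and small subunits lay within 0.16 of each other in each line on the log2 scale. The median of the large subunit minus that of the small subunit was -0.04 in HeyA8, -0.07 in HeyA8-MDR, 0.13 in SKOV3, 0.16 in SKOV3-TR, -0.11 in OV2008 and -0.07 in C13, so that the sign was positive in the SKOV3 lines and negative in the other 4. In SKOV3-TR the medians were 0.43 for the large and 0.27 for the small subunit, and in C13 they were -0.38 and -0.31. In C13, 44 of 48 large subunit genes and 27 of 29 small subunit genes were below 0, and 18 and 7 were below -0.5. Counting MRPS18A and MRPS30 with the large subunit left the difference at -0.07 in C13 and gave 0.12 in SKOV3-TR. Without the 31 members that share exon bases with another gene, the C13 difference was -0.23. The ratio of the summed levels, large over small, went from 1.81 to 1.73 in C13, from 1.88 to 1.77 in OV2008, from 1.23 to 1.30 in SKOV3-TR and from 1.78 to 1.93 in HeyA8. These subunit differences are descriptions of single pairs of libraries.

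By family, the median change in C13 was -0.46 over the 18 bacterial, -0.41 over the 26 universal and -0.32 over the 30 tested mitochondrial members. In SKOV3-TR the corresponding medians were 0.38, 0.36 and 0.34. All 3 families thus lay on the same side of 0 in both lines. In OV2008 the bacterial members had a median of -0.21 and the mitochondrial ones 0.01.

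In C13, the lowest log2 changes were those of MRPL12 (-1.28), MRPL57 (-1.04), MRPS34 (-0.89) and MRPL24 (-0.80). MRPL12 forms the flexible stalk that recruits translation factors, and it went from 47.6 CPM in C13 vehicle to 19.6 CPM in C13 QC. In OV2008 it went from 33.3 to 16.7 CPM, in HeyA8 from 16.1 to 16.0 CPM and in HeyA8-MDR from 18.2 to 17.2 CPM. In SKOV3 it was higher with QC (14.1 to 19.5 CPM), as in SKOV3-TR (13.4 to 18.8 CPM). MRPL12 was therefore lower with QC by more than 0.9 on the log2 scale in the OV2008 family, higher by more than 0.4 in the SKOV3 family and nearly level in the HeyA8 family. A read-through gene shares 69.5% of its exon bases, and edgeR's quasi-likelihood test gave an adjusted p of 0.668 for QC over the 6 lines.

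MRPL57, a small protein found only in mitochondria, went from 72.8 to 35.5 CPM in C13 and from 44.8 to 39.7 CPM in OV2008. In SKOV3-TR it went from 10.1 to 15.8 CPM, and in HeyA8 from 42.2 to 48.0 CPM. Its difference was thus larger in C13 than in OV2008. MRPS34, which stabilizes the small ribosomal RNA, went from 129 to 69.4 CPM in C13, from 152 to 105 CPM in OV2008 and from 63.3 to 77.3 CPM in SKOV3-TR. MRPL24, near the mouth of the exit tunnel, went from 68.9 to 39.5 CPM in C13 and from 64.8 to 93.4 CPM in SKOV3-TR.

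The highest changes in C13 were small, with MRPL45 at 0.11, MRPL48 at 0.07, MRPS36 at 0.06 and MRPL39 at 0.05. MRPL45 lies at the tunnel exit and anchors the ribosome to the inner membrane, and it went from 15.1 to 16.3 CPM. The values below 0 in C13 therefore ranged over nearly the whole family. C13 had the lowest change of the 6 lines for 57 of 77 members, and SKOV3-TR the highest for 38. Of the 77, 62 were above 0 in SKOV3-TR and below 0 in C13. No share over all genes was taken for these counts, so they describe the members only.

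Members that were low in C13 tended to be low in its parent line as well. Across the 77 members the changes in OV2008 and C13 had a Pearson r of 0.73, where the r over all 18720 genes was 0.44. These are correlations across genes within pairs of libraries, and genes are not independent replicates. The HeyA8 pair had 0.56 (0.22 over all genes) and the SKOV3 pair 0.26 (0.06). Between families, HeyA8-MDR and OV2008 had 0.53 (0.19), and SKOV3 and C13 -0.05 (-0.03). In both OV2008 and C13, 43 members were below 0 and 11 were below -0.5, namely MRPL4, MRPL12, MRPL16, MRPL24, MRPL28, MRPL40, MRPL41, MRPL43, MRPS18A, MRPS25 and MRPS34. These were listed after their values were seen. No share over all genes was taken for either count, and the changes in these lines were also correlated over all genes (r of 0.44).

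**Figure D3:**
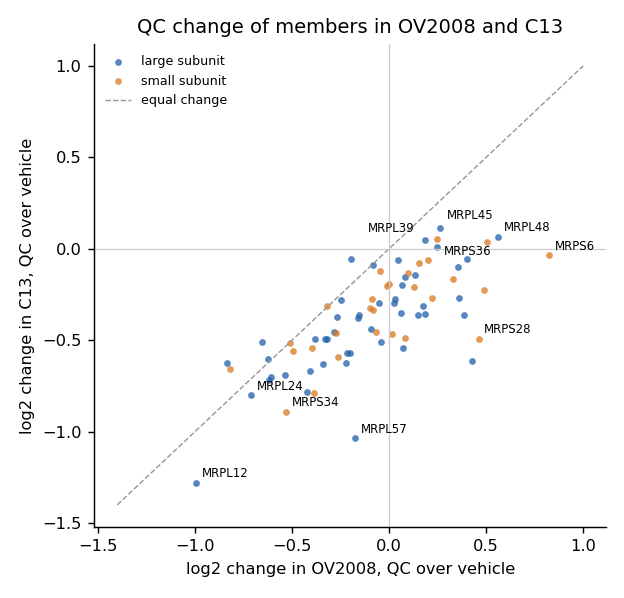
Log2 change with QC of the 77 tested members in OV2008 (x axis) and C13 (y axis), for the large (blue) and small (orange) subunit, with the line of equal change dashed. The points slope upward (r = 0.73), and 71 of 77 lie below 0 in C13.

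MRPS28 went against the direction of the other lines in C13 alone. It went from 12.2 to 17.1 CPM in HeyA8, from 11.4 to 12.5 in HeyA8-MDR, from 6.1 to 6.7 in SKOV3, from 5.1 to 6.2 in SKOV3-TR and from 6.4 to 8.9 CPM in OV2008, but from 11.7 to 8.3 CPM in C13. Its log2 changes were 0.13 to 0.48 in the 5 other lines and -0.49 in C13. The C13 values rest on 351 and 220 counts, and a read-through gene shares 56.2% of its exon bases. MRPL54 had a lower change in resistant than in sensitive lines (-0.47 ± 0.29, SE), with 0.60 in HeyA8 against -0.12 in HeyA8-MDR, 0.26 in SKOV3 against 0.21 in SKOV3-TR and 0.07 in OV2008 against -0.54 in C13. The difference had the same sign in all 3 pairs, but its unadjusted p in edgeR's quasi-likelihood test was 0.130.

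The C13 difference was also read beside the levels without drug. In the vehicle libraries 53 of 77 members were higher in C13 than in OV2008, with a median log2 difference of 0.30, where that over all genes was 0.03. The largest differences were those of MRPL55 (1.197), MRPL36 (1.09) and MRPL2 (1.04), which were listed after their values were seen. In the QC libraries 39 of 77 members were lower in C13 than in OV2008. The change in C13 and its vehicle level share the same vehicle library, so a high vehicle library alone would enter both values, and this was not tested. In the other pairs the median vehicle difference was -0.07 for HeyA8-MDR minus HeyA8 and -0.17 for SKOV3-TR minus SKOV3, with 34 and 30 of 77 members higher in the resistant line.

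Across the 6 lines a test of QC was run for every gene with the cell line as a term. By edgeR's quasi-likelihood test at an unadjusted p under 0.05, the threshold the study used, 8 members were called over all 6 lines. Of these, 7 were higher with QC (7.99% of all genes tested were) and 1 was lower (7.18%), so that the share of the 77 members called higher was near the background and the share called lower was under it. After Benjamini-Hochberg adjustment over all genes 0 members and 0.0% of genes were called, and the smallest adjusted p of a member was 0.167. DESeq2 called 3 members at an adjusted p under 0.05, with 2.77% of all genes, and they were MRPS25 (0.0267), MRPL48 (0.0338) and MRPS6 (0.0444).

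MRPS6, which lies on the platform of the small subunit, had the largest fitted log2 change over the 6 lines (0.60 ± 0.17, SE). It went from 15.2 to 33.1 CPM in HeyA8, from 23.3 to 46.2 in HeyA8-MDR, from 32.6 to 53.8 in SKOV3-TR and from 25.8 to 45.8 CPM in OV2008. In SKOV3 it was at 53.7 and 53.6 CPM and in C13 at 35.5 and 34.6 CPM. Its level was therefore above vehicle in 4 lines and level in SKOV3 and C13, and its unadjusted p was 0.0039 with an adjusted p of 0.172 in edgeR. SLC5A3 lies in the same locus and shares part of the 33.1% of exon bases that overlap another gene.

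MRPL48, a large subunit protein found only in mitochondria, was higher in all 6 lines, with a fitted change of 0.44 ± 0.12 (SE). It went from 28.5 to 44.8 CPM in HeyA8, from 34.8 to 53.2 in HeyA8-MDR, from 26.1 to 31.7 in SKOV3, from 13.3 to 18.1 in SKOV3-TR, from 40.1 to 59.3 in OV2008 and from 60.0 to 62.8 CPM in C13. No other gene's exons overlap it. The smallest increase was that in C13.

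MRPL47, beside the tunnel exit, had a fitted change of 0.45 ± 0.15 (SE) and MRPL13, a universal protein, 0.42 ± 0.13. MRPL47 went from 22.9 to 53.2 CPM in HeyA8-MDR but from 72.0 to 69.3 CPM in C13. MRPL13 went from 38.2 to 71.5 CPM in HeyA8-MDR and from 127 to 128 CPM in C13. MRPL39 (0.39 ± 0.15), MRPS15 (0.38 ± 0.14) and MRPS36 (0.34 ± 0.14) completed those that were higher. For all 7 the C13 change was the lowest of the 6 lines.

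MRPS25, a small subunit protein found only in mitochondria, was lower in all 6 lines, with a fitted change of -0.49 ± 0.13 (SE). It went from 54.1 to 38.7 CPM in HeyA8, from 60.0 to 37.4 in HeyA8-MDR, from 29.3 to 25.8 in SKOV3, from 12.7 to 12.03 in SKOV3-TR, from 67.7 to 38.4 in OV2008 and from 89.3 to 56.6 CPM in C13. On the log2 scale it was lowest in OV2008 (-0.82), then in HeyA8-MDR (-0.68) and C13 (-0.66), and nearest to 0 in the SKOV3 lines. NR2C2 and an unnamed gene overlap 44.1% of its exon bases. MRPL17 (-0.27 ± 0.13) and MRPS2 (-0.24 ± 0.11) had the next smallest p among members with a lower value, and neither passed the threshold (unadjusted p of 0.056 in edgeR's quasi-likelihood test for both).

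**Figure D4:**
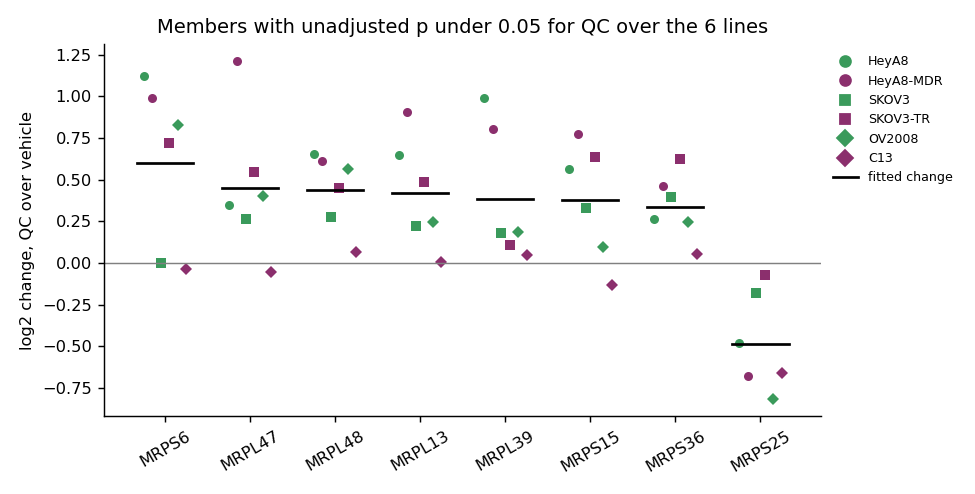
Log2 change with QC in each of the 6 lines (points, sensitive in green and resistant in purple, 1 marker shape per family) of the 8 members with an unadjusted p under 0.05 over all lines, with the fitted change as a black line. MRPL48, MRPL13, MRPL39 and MRPS36 lie above 0 and MRPS25 below 0 in all lines, and the C13 points of the 7 others than MRPS25 lie between -0.13 and 0.07.

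These calls depended unequally on single lines. MRPS6, MRPL47, MRPL48, MRPL13 and MRPS25 kept an unadjusted p under 0.05 when any 1 of the 6 lines was left out, with MRPS6 between 0.50 and 0.72 and MRPS25 between -0.57 and -0.42 on the log2 scale. Without HeyA8, 8 members were called, 6 of them higher (6.62% of all genes tested) and 2 lower (5.41%). Without C13 the count was 13, with 12 higher (6.13% of all genes) and 1 lower (6.35%). Without SKOV3-TR it was 14, with 5 higher (7.79% of all genes) and 9 lower (6.98%). The median fitted change of the members was 0.02 over all 6 lines, 0.11 without C13 and -0.05 without SKOV3-TR.

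By direction alone, 5 members were higher in all 6 lines (MRPL13, MRPL39, MRPL48, MRPS33, MRPS36), where 4.13% of all genes were. Lower in all 6 lines were 3 members (MRPL30, MRPS2, MRPS25), where 4.6% of all genes were. No member moved by 0.3 or more in the same direction in every line. A further 7 members were above 0 in the 5 other lines and below 0 in C13, and no share over all genes was taken for this count.

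In the sensitive lines, 3 members were called at an unadjusted p under 0.05. MRPS6 (0.65 ± 0.26, SE) and MRPL48 (0.50 ± 0.19) were higher with QC, where 3.55% of all genes were, and MRPS25 (-0.50 ± 0.20) was lower, where 3.04% of all genes were. None passed adjustment (0.0% of genes), with a smallest adjusted p of 0.713 among members in edgeR's quasi-likelihood test, and DESeq2 called 0. Without HeyA8 the count at an unadjusted p under 0.05 was 0, where 4.06% of all genes were called. The mean level of MRPS6 in these lines was 31.6 ± 19.9 CPM (SD, n = 3) in vehicle and 44.2 ± 10.4 CPM in QC. These SDs include the differences between lines, which the test takes out, so their overlap does not measure the change within lines. MRPL58, a peptidyl-tRNA hydrolase that rescues stalled ribosomes, was higher in each sensitive line (0.21, 0.58 and 0.35 in HeyA8, SKOV3 and OV2008) without passing the threshold. MRPL16 (-0.29 ± 0.20) and MRPS18A (-0.36 ± 0.24) had lower fitted values that did not pass either.

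In the resistant lines, 3 members were called as well. MRPL47 (0.56 ± 0.23) and MRPL13 (0.46 ± 0.20) were higher, where 3.43% of all genes were, and MRPS25 (-0.48 ± 0.20) was lower, where 2.59% were. None passed adjustment (0.0% of genes), with a smallest adjusted p of 0.816 in edgeR's quasi-likelihood test, and DESeq2 called 0. MRPS6 (0.56 ± 0.26), MRPL17 (-0.34 ± 0.20) and MRPS26 (-0.32 ± 0.20) did not pass the threshold. The count moved when single lines were left out. Without C13, 11 members were higher (4.1% of all genes) and 0 lower (2.87%). Without SKOV3-TR, 0 were higher (4.04% of all genes) and 2 lower (2.18%), MRPL34, named after its values were seen, and MRPS25. Without HeyA8-MDR 0 members were called, where 2.07% of all genes were. The median fitted change of the members was 0.02, and it was 0.21 without C13 and -0.15 without SKOV3-TR.

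The QC change did not differ detectably between resistant and sensitive lines for any member. At an unadjusted p under 0.05 in edgeR's quasi-likelihood test 0 members were called, where 1.16% of all genes were, and at an adjusted p 0 members and 0.0% of genes were. DESeq2 called 0 members after adjustment too. The largest positive differences by p were those of MRPL42 (0.25 ± 0.31, SE), MRPS22 (0.20 ± 0.28) and MRPS24 (0.29 ± 0.39), and the negative ones were those of MRPL54 (-0.47 ± 0.29), MRPS28 (-0.40 ± 0.37) and MRPS31 (-0.28 ± 0.28). With a standard error near 0.3 on the log2 scale, differences of that size were not detectable with 3 lines per group. Without C13, 1 member was called (MRPL42, higher in resistant lines), where 2.73% of all genes were, and without HeyA8 0 members and 1.28% of all genes were.

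Between resistant and sensitive lines without drug, 1 member was called. MRPL19 was lower in the resistant lines (-0.72 ± 0.28, SE), where 3.77% of all genes were called in either direction, and after adjustment 0 members and 0.0% of genes were called in edgeR and 0 members in DESeq2. MRPL19 was at 45.3 CPM in HeyA8-MDR against 78.4 in HeyA8, at 52.2 in SKOV3-TR against 107 in SKOV3 and at 83.6 in C13 against 108 CPM in OV2008. It was lower in the resistant line of each pair, and the group ranges did not quite separate, with 83.6 CPM the highest resistant and 78.4 CPM the lowest sensitive value. Its call was lost when any 1 of the 3 families was left out, with an unadjusted p of 0.135 without the HeyA8 family, 0.165 without the SKOV3 family and 0.070 without the OV2008 family in edgeR's quasi-likelihood test. The count of members called was then 0, 1 and 0, where 3.47%, 3.5% and 4.08% of all genes were called, and the 1 was MRPL49, higher in resistant lines and named after its values were seen. MRPL11 (0.55 ± 0.26), at the base of the stalk, MRPL9 (0.61 ± 0.29) and MRPL21 (0.49 ± 0.28) had higher values in resistant lines, and MRPL47 (-0.74 ± 0.35) and MRPS35 (-0.37 ± 0.27) lower ones, none of which passed the threshold.

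Other genes of mitochondrial translation were listed by role and read beside the members. The 5 mitoribosomal proteins with another kind of symbol had a median log2 change of 0.52 in SKOV3-TR and -0.36 in C13, close to the members, and 0 of the 5 passed the threshold in the fit over all 6 lines. Among them DAP3, a GTP-binding protein of the small subunit, went from 149 to 76.1 CPM in C13 and from 69.4 to 78.3 CPM in SKOV3-TR. Of 26 assembly factors of the mitoribosome, 1 was higher and 8 were lower at an unadjusted p under 0.05 over the 6 lines, where 7.99% of all genes were higher and 7.18% lower. RBFA, which matures the small subunit RNA, fell by 0.59 on the log2 scale (SE 0.16) and NOA1, a GTPase of small subunit assembly, fell by 0.46 (SE 0.13) at an adjusted p of 0.169 each in edgeR's quasi-likelihood test. GTPBP10, a GTPase of large subunit assembly, was the one that was higher (0.36 ± 0.16), and it was named after its values were seen. The assembly factors had a median of -0.45 in HeyA8-MDR and -0.22 in C13 but -0.002 in SKOV3-TR.

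Of 16 translation factors, 3 were higher and 0 lower over the 6 lines, namely GFM2 (0.32 ± 0.11, SE), which recycles ribosomes, GUF1 (0.26 ± 0.10), a GTPase of elongation, and MTRF1 (0.40 ± 0.17), of the release factor family, the last named after its values were seen. The shares of all genes in the same fit, 7.99% higher and 7.18% lower, stand beside these counts and those that follow. The 19 tested genes listed as mitochondrial tRNA synthetases include GATB, GATC and QRSL1, which encode subunits of an amidotransferase and not synthetases. Of the 19 (VARS2 did not pass the filter), 3 were lower and 0 higher. These were AARS2 (-0.47 ± 0.14), HARS2 (-0.54 ± 0.18) and MARS2 (-0.49 ± 0.21), which charge the tRNAs for alanine, histidine and methionine, and MARS2 was named after its values were seen. Of 6 genes of mitochondrial transcription, 1 was lower, POLRMT, the RNA polymerase of mitochondria (-0.44 ± 0.13). MTERF2 was at -0.30 ± 0.16 and did not pass. None of these genes passed adjustment in edgeR's quasi-likelihood test, and the smallest adjusted p among them was 0.176.

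The 13 mRNAs encoded by mitochondrial DNA, which the mitoribosome translates, had 0 members past the threshold over the 6 lines. Their median log2 change was -0.40 in C13, with 13 of 13 below 0, and 0.38 in SKOV3-TR, with 13 of 13 above 0. In OV2008 it was -0.54, in HeyA8-MDR 0.35, in SKOV3 -0.15 and in HeyA8 -0.02. MT-CO3, a subunit of cytochrome c oxidase, went from 5197 to 3596 CPM in C13 and from 4517 to 5060 CPM in SKOV3-TR. MT-CYB of complex III went from 3095 to 2268 CPM in C13 and from 1168 to 1202 CPM in SKOV3-TR. The 85 genes of the cytoplasmic ribosome, by symbol, had medians of -0.43 in C13 (83 of 85 below 0) and 0.31 in SKOV3-TR (80 of 85 above 0). In SKOV3 the cytoplasmic genes were at -0.15 where the members were at 0.08.

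Transcript length moved with these differences. The tested members have a median transcript of 1260 bases, against 3345 bases over the 14274 protein-coding genes tested, with a similar GC content (48.0% and 48.8%). In C13, protein-coding genes other than members had a median log2 change of -0.28 for transcripts up to 1 kb, -0.20 for 1 to 2 kb, -0.07 for 2 to 4 kb and 0.09 over 4 kb. Members in the same classes had -0.49 (25 genes), -0.31 (34), -0.32 (12) and -0.37 (6). In SKOV3-TR the other genes had 0.26, 0.05, 0.00 and -0.06, and the members 0.43, 0.35, 0.35 and 0.22. In each of these length classes, members were lower than other genes in C13 and higher in SKOV3-TR.

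**Figure D5:**
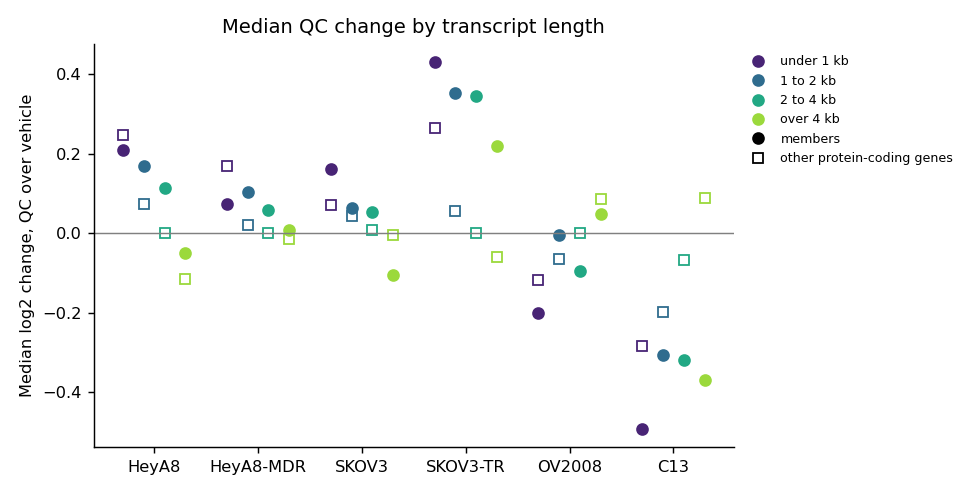
Median log2 change with QC in each line by transcript length class, for members (filled circles, 25, 34, 12 and 6 genes from short to long) and other protein-coding genes (open squares). In C13 the squares go from -0.28 in the shortest class to 0.09 in the longest, and the circles lie below them in all 4 classes.

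Among the members, GC content of the transcript moved with the change mainly in 3 of the lines, C13, OV2008 and HeyA8-MDR. In C13 the members above 55% GC had a median of -0.60 (18 genes), those of 45 to 55% -0.37 (32) and those under 45% -0.23 (27). Spearman's rho of the change with GC across the 77 members was -0.53 in C13, -0.51 in OV2008, -0.465 in HeyA8-MDR, -0.23 in HeyA8, -0.104 in SKOV3-TR and 0.14 in SKOV3. Over the 14274 protein-coding genes rho was -0.255 in HeyA8-MDR, -0.224 in SKOV3-TR, -0.196 in OV2008 and -0.144 in C13. It was 0.116 in HeyA8 and 0.007 in SKOV3, so the order of the lines differed from that of the members. When a smooth trend on length and GC over the 14274 protein-coding genes was taken off, the member medians were 0.07 in HeyA8, -0.04 in HeyA8-MDR, 0.02 in SKOV3, 0.22 in SKOV3-TR, -0.10 in OV2008 and -0.24 in C13. In C13, 9 members were then below -0.5 in place of 25, with MRPL12 at -1.04 and MRPL57 at -0.90, where 11.9% of the protein-coding genes were below. In SKOV3-TR 8 members were above 0.5 in place of 21, where 9.05% of those genes were. In both lines the share of the 77 members past 0.5 in size was then near that of the protein-coding genes. SKOV3-TR and C13 kept the highest and the lowest median. With the trend taken over all genes the medians were 0.33 in SKOV3-TR, with 16 members above 0.5 (12.3% of all genes), and -0.35 in C13, with 20 below -0.5 (14.5%). Scaling by library size alone gave 0.24 in SKOV3-TR and -0.21 in C13, where the medians over all genes were -0.12 and 0.12. With that scaling 9 members were above 0.5 (9.26% of all genes) and 1 was below -0.5 in SKOV3-TR, and 11 were below -0.5 (10.1%) in C13. RNA quality values were not used here, and the part of length and GC in these differences was not tested beyond this correction.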

How the data were processed

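RNA-seq of the 12 libraries was deposited by the authors as raw counts per gene without normalization. The submitters' processing notes name STAR 2.7.3a, HTSeq 0.6.1p1 and GRCh38.p13, while the study's methods name TopHat and hg19. The table names no build, and the annotation and strand setting are not given in the sources used here, so no coordinates are tied to the counts. Symbols, transcript lengths (MANE Select), GC and exon overlaps came from GENCODE on GRCh37, which paired 58663 of 60669 identifiers, and promoters from RefSeq. Reads over genes that share exons cannot be assigned with certainty.

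Counts were filtered with filterByExpr (minimum count 10, minimum total 15) and TMM scaled. edgeR 4.0.16 (R 4.3.3) quasi-likelihood fits had a term for each line and a QC effect in sensitive and in resistant lines, or 1 QC effect over all 6. Vehicle libraries were fitted with family as a term (16091 genes). Tests were two-sided with Benjamini-Hochberg adjustment. Pairing comes from the shared line, and correlations of deviations of a line's 2 libraries were 0.893 to 0.929. Line values are log2 ratios of CPM with a prior count of 2. DESeq2 1.42.0 was an alternative. The length and GC trend (loess, span 0.5), the DESeq2 adjusted calls and the subunit reassignment were added after seeing the data. The fits were also run on simulated data, and the outcome is not given here. Plots were drawn with matplotlib 3.10.9.

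The members and gene lists were chosen with earlier results of these data known. Named members are the 3 with the smallest p in each direction of the 5 comparisons, the 4 lowest and 4 highest in C13, the 3 highest and lowest levels per kb in each subunit, and MRPS28, MRPL54, MRPL12 and MRPS36. Other lists give at most 2 genes by p over the 6 lines. Genes outside this rule are marked in the text.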

Additional observations from a re-analysis of the deposited data

Results flagged for a closer look

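MRPS28 in C13 stood apart from the other 5 lines, with a log2 change of -0.49 where the others lay between 0.13 and 0.48. It was flagged because the gap to the nearest line exceeded Dixon's 95% critical value for 6 values (gap over range of 0.639). Of 42 sets of 6 line values examined this was the only one. Chance alone flags about 5% of sets that were not chosen by their values. MRPS28 was named with earlier results of these data known, so that rate cannot be applied to it and the flag is a description. Its C13 libraries held 351 and 220 counts. No member had every sensitive line on one side of 0 and every resistant line on the other.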

How the results depend on the processing

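With 3 lines per group and 1 library each, counts of called members were not stable. At an adjusted p under 0.05 edgeR called 0 members in sensitive lines, 0 in resistant lines, 0 over all 6 lines and 0 without drug, and DESeq2 called 0, 0, 3 and 0. Without the replicate block the counts at an unadjusted p under 0.05 were 0, 0, 0 and 0. Requiring at least 10 counts in every library gave 5 members in resistant lines, and library size scaling or no filter gave 0 without drug. Leaving out 1 line gave 0 to 5 members in sensitive lines, 0 to 11 in resistant lines, 5 to 14 over all 6 lines and 0 to 1 for the resistant minus sensitive difference, and leaving out 1 family gave 0 to 1 without drug, the 1 being MRPL49 and not MRPL19. Without the members that overlap other exons, the large minus small median in C13 was -0.23. The fewer lines or members are part of these alternatives, and the cause of the other moves was not tested. Of the 8 members called over all 6 lines, MRPS15, MRPS36 and MRPL39 lost the call without 1 of the lines, and the called members kept their direction in every alternative run. The member medians of SKOV3-TR (0.22 to 0.37) and C13 (-0.36 to -0.21) kept their sign in every alternative. HeyA8-MDR did not, at 0.07 as reported, -0.06 with library size scaling and -0.04 after the length and GC correction over protein-coding genes. The large minus small median in HeyA8 was -0.04 as reported and 0.01 without overlapping members. No line has a replicate, so differences within a line cannot be set against their own error.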
